A study of Mus musculus with 9 samples.

Results

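The genes described here are 38 components of the DNA replication machinery, chosen by symbol: the proteins that mark and open replication origins, the polymerases, the sliding clamp and its loader, and the enzymes that supply nucleotides and rebuild chromatin. All 38 were found among the 46958 genes of the count table. All 38 also passed a filter on low counts that kept 14199 genes, each genotype being able to bring a gene through that filter. RNA was sequenced from spleen plasma cells, the antibody-secreting end stage of the B cell lineage, taken with magnetic beads that bind CD138 (syndecan-1). The 9 libraries came from 9 mice that were 3 months old, had not been immunized and had a mixed C57/BL6, 129/SV and BALB/c background. There were 3 mice each of the genotypes WT, DH-LMP2A and kFRA. The genotype label marks kFRA as the LCDD genotype, for light chain deposition disease, in which a free immunoglobulin light chain is deposited in tissues. The labels describe the alleles no further. The comparisons address what differs in plasma cells between kFRA mice and the other genotypes. The isolated fraction was not pure, per the design text, and in such bulk samples fewer dividing cells and less RNA per cell cannot be told apart.

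Replication is prepared in G1, when the origin recognition complex, Cdc6 and Cdt1 load the Mcm2 to Mcm7 helicase onto DNA. In S phase Cdc45 and the GINS complex switch the helicase on, the polymerase alpha and primase complex starts each strand, and polymerases epsilon and delta extend it on the Pcna clamp. Transcription of many of these genes rises in cycling cells under E2F factors, and plasma cells are known for leaving the cell cycle as they mature from dividing plasmablasts.

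Short E2F-type letters were found in the promoters of 14 members, and 4 of these promoters are printed here because they hold matches of different kinds. RefSeq promoter windows (GRCm38.p6, 250 bases before to 50 after each start) were found for 31 of the 38 genes, as 36 windows. Capitals mark matches, on either strand, to TTTCGCGC, TTTGGCGC or TTTCCCGC, and each stretch is written 5′ to 3′ on the strand of its gene. Mcm6 is at chr1:128359715-128359845 on the minus strand, Mcm5 at chr8:75109326-75109397 on the plus strand, Pola1 at chrX:93632256-93632323 on the minus strand and Gins3 at chr8:95633488-95633555 on the plus strand.
Mcm6: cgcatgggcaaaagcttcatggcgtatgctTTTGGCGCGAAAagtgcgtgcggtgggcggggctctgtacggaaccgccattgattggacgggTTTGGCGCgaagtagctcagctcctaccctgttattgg
Mcm5: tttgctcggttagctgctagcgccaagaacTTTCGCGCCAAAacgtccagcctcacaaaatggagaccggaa
Pola1: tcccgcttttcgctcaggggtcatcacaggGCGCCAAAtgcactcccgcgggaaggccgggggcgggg
Gins3: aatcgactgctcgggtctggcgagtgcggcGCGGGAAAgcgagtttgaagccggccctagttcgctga
In Mcm5 and Mcm6, members of the same helicase ring, TTTCGCGC and TTTGGCGC overlap on opposite strands in the 12 letters TTTGGCGCGAAA, whose reverse complement is TTTCGCGCCAAA. Only 4 of 32851 RefSeq windows (0.0122%) hold these letters, and 2 of the 4 are those of Mcm5 and Mcm6. Because the letters are the ones seen in the Mcm5 and Mcm6 windows, both had to be among the 4.

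At least 1 of 4 E2F-type motifs, the 3 above and TTTGCCGC, occurred in 14 of the 36 member windows (38.9%) and in 744 of all 32851 windows (2.26%). By motif, TTTCGCGC was in 19.4% of the member windows against 0.323% of all, TTTGGCGC in 16.7% against 0.514%, and TTTCCCGC in 16.7% against 1.07%, while TTTGCCGC was in 0 against 0.441%. The CCAAT box, a general promoter element, was in 58.3% of member windows and 37.4% of all. Of the 20 E2F-type matches, 12 lay before the start and 8 after it. The 14 genes with a match were Orc1, Cdc6, Cdt1, Mcm3, Mcm5, Mcm6, Mcm7, Gins3, Pola1, Pole2, Pold1, Rfc3, Lig1 and Uhrf1. Their median log2 fold change between kFRA and DH-LMP2A was -0.42, beside -0.33 for the 17 matched genes without a match. Between kFRA and WT these medians were -0.34 and -0.20, and between DH-LMP2A and WT 0.14 and 0.06. A match describes letters only, and binding of any factor was not measured.

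Total counts per library ran from 15449026 to 21558128, and single members from 15 counts (Orc1) to 1590 (Pcna) per library. All 8 plasma cell markers were detected in every library, and their summed level differed between genotypes. It was 18870 to 24120 CPM (counts scaled to a common library total) in WT. In kFRA it was 20380 to 32040 CPM and in DH-LMP2A 34120 to 47120. Most of that sum was Jchain, with a mean of 17810 CPM in WT, 21100 in kFRA and 30940 in DH-LMP2A. Against WT, 7 of the 8 had a log2 fold change above 0 in kFRA, and 7 in DH-LMP2A. Tnfrsf17 went the other way, with means of 49.29 CPM in WT, 15.33 in kFRA and 21.99 in DH-LMP2A. Markers of other cells were present too. Summed levels of 9 erythroid genes were 49.7 to 333.3 CPM in WT, 1093 to 2583 in kFRA and 2425 to 12840 in DH-LMP2A, with Gata1 at 0 in WT replicate 1. Summed levels of 8 B cell genes, none of them at 0, were 470.3 to 490.2 CPM in kFRA, 508.9 to 747.9 in WT and 737.7 to 952.8 in DH-LMP2A. Those of 8 myeloid genes were highest in WT, at 2394 to 4009 CPM, beside 643.3 to 1928 in DH-LMP2A and 1192 to 1845 in kFRA. Each genotype held mice of both sexes: the female-specific RNA Xist had 494.3 to 922.8 CPM in WT replicates 1 and 3, DH-LMP2A replicates 1 and 2 and kFRA replicate 2, and 0.4587 to 4.481 CPM elsewhere.

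Levels differed widely between members. Averaged over the 9 libraries and divided by exon length, Pcna, the sliding clamp, was the most abundant at 24.4 RPKM (CPM per kilobase of exon). It was followed by Fen1 at 16.7, Rrm2 at 15.1, Cdt1 at 14.3, Gins4 at 11.5 and Mcm6 at 11.0 RPKM. At the low end stood Pole at 0.761, Chaf1b at 0.552 and Orc1 at 0.541 RPKM. The 38 genes together took 0.0521% (kFRA replicate 1) to 0.0985% (DH-LMP2A replicate 1) of all counts. Their summed level was 749.1 to 860 CPM in DH-LMP2A, 699.1 to 811.6 in WT, and 550.3, 772.6 and 678.8 in kFRA replicates 1, 2 and 3. Replicates 1 and 3 of kFRA were thus below every other library, and replicate 2 was within the range of the other genotypes.

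**Figure D1:**
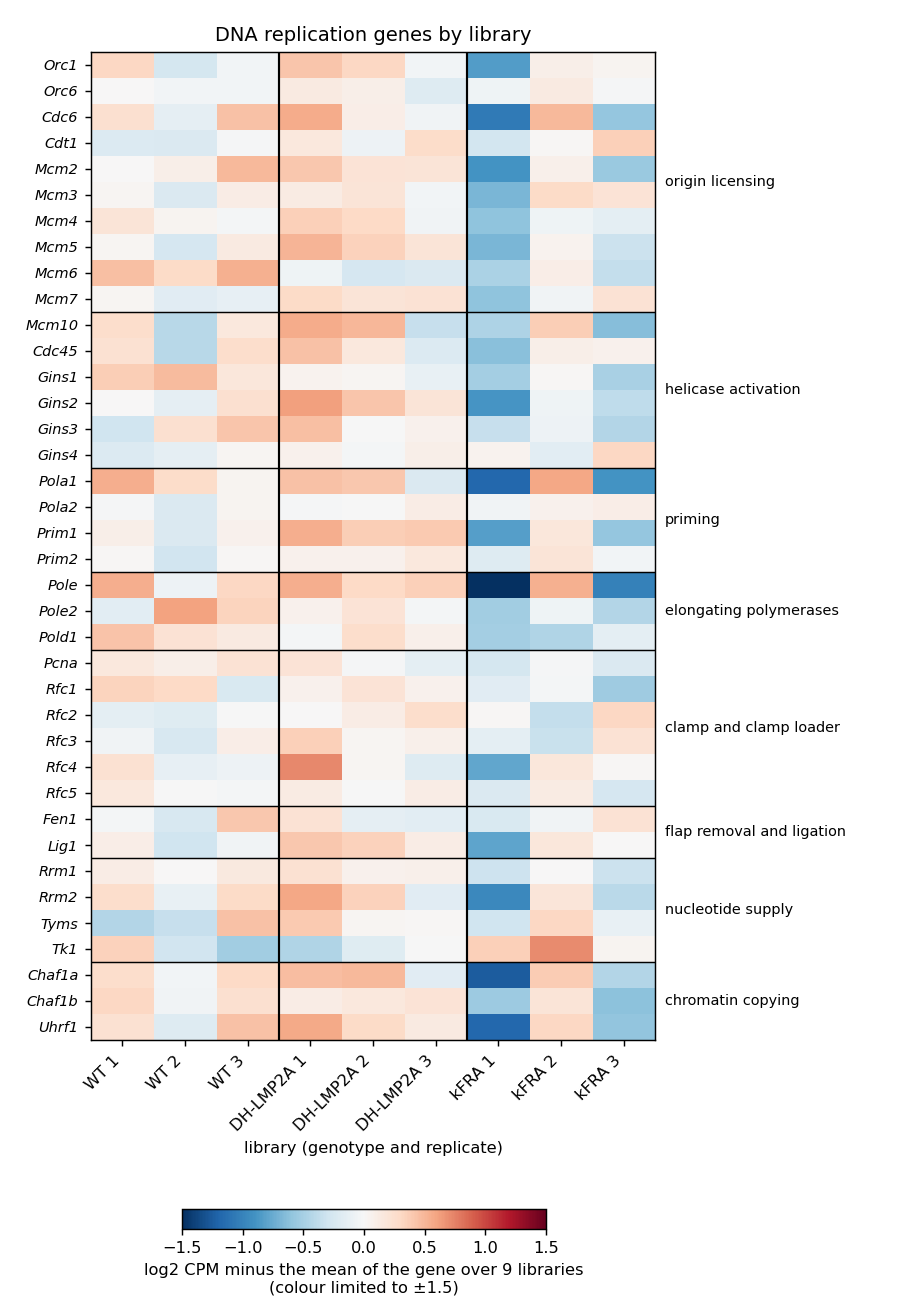
Level of each of the 38 replication genes (rows, by role) in the 9 libraries (columns), as log2 CPM minus the gene's mean over the libraries. The column of kFRA replicate 1 holds the lowest value of the 9 libraries for 23 genes, DH-LMP2A replicate 1 holds the highest for 18, and Mcm6 is high in the WT columns.

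Origin licensing genes include the helicase subunits Mcm2 to Mcm7, which form a hexameric ring in equal amounts. Among them Mcm6 stood apart, being higher in WT than in either other genotype. Its level was 68.1, 60.75 and 72.35 CPM in WT replicates 1 to 3. It was 47.7, 41.9 and 42.7 CPM in DH-LMP2A and 35.9, 53.2 and 38.7 CPM in kFRA. Every WT library lay above every other library. In this text a gene is called when its edgeR p-value, adjusted over all 14199 genes, is under 0.05, and fold changes carry their standard error (SE). Mcm6 (chr1:128331590-128359664) fell by 0.65 on the log2 scale in kFRA against WT (SE 0.162, edgeR adjusted p = 0.0237). It also fell by 0.60 in DH-LMP2A against WT (SE 0.162, edgeR adjusted p = 0.0396), a contrast that shares the WT libraries. The second call did not hold when any single library of the 2 genotypes was left out, with edgeR adjusted p between 0.0709 and 0.108. The first was lost without kFRA replicate 1 or 3, or WT replicate 1 or 3 (edgeR adjusted p = 0.0939, 0.0784, 0.0635 and 0.0641), and in a fit of the 6 libraries compared (0.061, edgeR). With scaling by library size alone the log2 fold changes of Mcm6 were -0.41 and -0.26, not called (edgeR adjusted p = 0.282 and 0.458).

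Against its partners in the ring, Mcm6 differed in level between genotypes, a pattern chosen after the values were seen and given without a test. The log2 CPM of Mcm6 minus the mean of Mcm2, Mcm3, Mcm4, Mcm5 and Mcm7 was 1.13, 1.12 and 1.16 in WT. It was 0.34, 0.24 and 0.41 in DH-LMP2A, and 0.95, 0.77 and 0.49 in kFRA. The 3 ranges did not overlap. These differences are not corrected for transcript length, which is the same in every library.

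The other 5 ring subunits were not called in any contrast. Mcm2 was at 18.25, 35.8 and 23.1 CPM in kFRA replicates 1 to 3, against 44.9, 39.2 and 39.0 in DH-LMP2A and 34.1, 36.3 and 47.6 in WT. All kFRA libraries were below all DH-LMP2A libraries, while kFRA replicate 2 fell within the WT range. The log2 fold change was -0.67 against DH-LMP2A (SE 0.236, edgeR adjusted p = 0.145) and -0.61 against WT (SE 0.237, edgeR adjusted p = 0.102). Mcm5 was at 19.1, 31.99 and 24.5 CPM in kFRA, beside 43.9, 39.1 and 35.0 in DH-LMP2A and 31.4, 25.8 and 33.7 in WT. Here DH-LMP2A was the highest genotype without overlap, and kFRA replicate 2 overlapped WT. The fold change of Mcm5 between kFRA and DH-LMP2A was -0.64 in log2 units (SE 0.195, edgeR adjusted p = 0.101), and between DH-LMP2A and WT 0.38 (SE 0.194, edgeR adjusted p = 0.258).

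Mcm4 was at 15.03, 21.96 and 20.75 CPM in kFRA, beside 29.3, 28.1 and 22.04 in DH-LMP2A and 26.3, 23.6 and 22.3 in WT, so that kFRA was lowest without overlap but by a narrow gap. Its log2 fold change against DH-LMP2A was -0.46 (SE 0.174, edgeR adjusted p = 0.168). Mcm3 was at 18.8, 36.7 and 34.8 CPM in kFRA, beside 32.8, 34.4 and 29.2 in DH-LMP2A and 30.7, 25.8 and 32.45 in WT. Mcm7 was at 21.9, 32.04 and 38.7 in kFRA, beside 40.5, 38.1 and 38.7 in DH-LMP2A and 33.9, 29.6 and 30.5 in WT. For both of these, kFRA replicate 1 was the lowest of the 9 libraries. The other kFRA libraries lay above every other library for Mcm3 and among those of the other genotypes for Mcm7. Mcm7 in DH-LMP2A was above WT in every library, by 0.32 in log2 units (SE 0.185, edgeR adjusted p = 0.319).

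**Figure D2:**
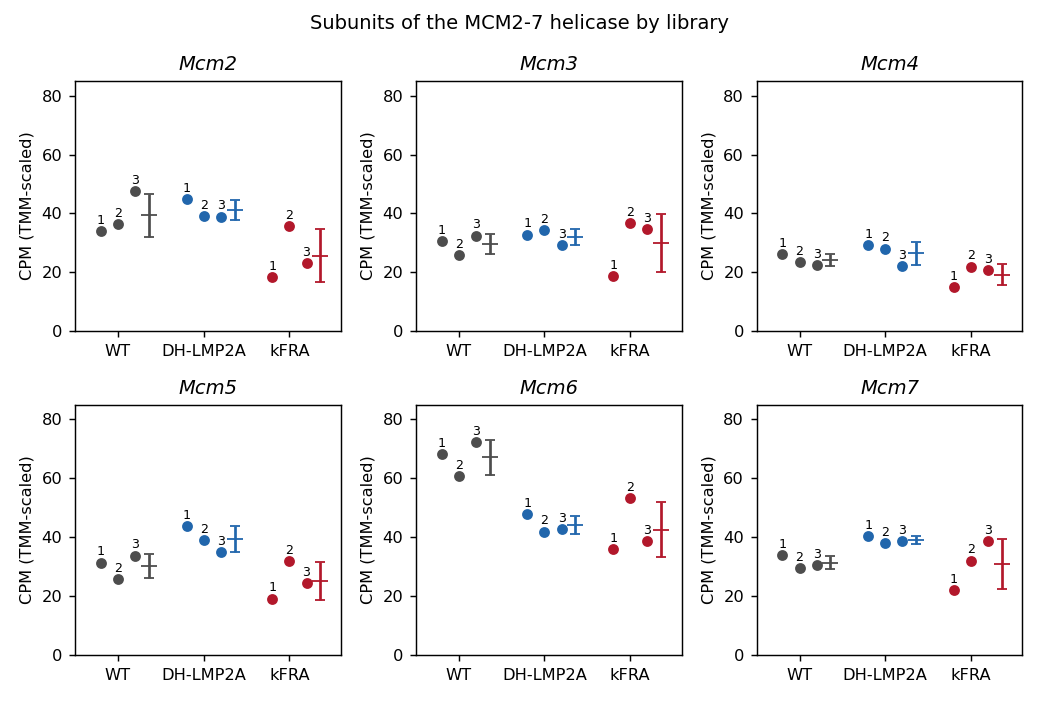
Level of Mcm2 to Mcm7 (CPM) in each library, by genotype, with points for libraries and a bar for the mean of 3. Mcm6 in WT lies at 60.75 CPM or above in every library, over all other points for that gene, while Mcm2 and Mcm5 in kFRA lie below every DH-LMP2A point.

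The loaders of the ring varied less evenly. Cdt1, which brings the helicase to origins, was at 25.8, 31.3 and 39.7 CPM in kFRA, beside 34.5, 29.4 and 37.7 in DH-LMP2A and 26.9, 26.8 and 30.6 in WT, with overlap between all genotypes. Its log2 fold change between DH-LMP2A and WT was 0.27 (SE 0.171, edgeR adjusted p = 0.364). Cdc6, the loading ATPase, was at 3.76, 11.0 and 5.27 CPM in kFRA against 7.59 to 11.6 in DH-LMP2A and 7.14 to 10.7 in WT. Orc1 ran from 1.02 to 2.45 CPM over all libraries and Orc6 from 5.03 to 6.34. For Cdc6 the kFRA genotype thus holds both the lowest values and a value near the top of the range.

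Of the helicase activation genes, Gins1, Gins2, Gins3 and Mcm10 were low per length, at 0.769 to 1.9 RPKM. Cdc45 and Gins4 stood higher, at 4.47 and 11.5 RPKM. Gins2 was at 1.64, 2.90 and 2.32 CPM in kFRA, beside 4.65, 4.03 and 3.48 in DH-LMP2A and 3.04, 2.75 and 3.56 in WT, each kFRA library being below each DH-LMP2A library. The log2 fold change of -0.82 against DH-LMP2A was the most negative of the 38 in that contrast, at edgeR adjusted p = 0.113 (SE 0.259). Gins1 was at 1.98, 2.85 and 2.01 CPM in kFRA, beside 2.92, 2.87 and 2.61 in DH-LMP2A and 3.64, 3.92 and 3.18 in WT. Here WT was the highest genotype without overlap, and the log2 fold change of kFRA against WT was -0.65 (SE 0.229, edgeR adjusted p = 0.0803). Gins4, the most abundant of these genes per length, was at 16.1, 13.9 and 19.4 CPM in kFRA, beside 16.2, 15.25 and 16.6 in DH-LMP2A and 13.5, 14.2 and 15.85 in WT, with all genotypes overlapping. The remaining activators, Gins3, Cdc45 and Mcm10, ran from 2.82 to 5.20, 6.36 to 13.3 and 3.70 to 8.50 CPM.

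In the priming complex, Prim1 and Pola1 spread widely within kFRA while Pola2 and Prim2 did not. Prim1, the catalytic primase subunit, was at 5.74, 11.5 and 6.83 CPM in kFRA, beside 14.8, 13.2 and 13.3 in DH-LMP2A and 10.8, 8.77 and 10.6 in WT. The DH-LMP2A libraries were the highest without overlap, and kFRA replicate 2 was above the WT libraries while replicates 1 and 3 were below them. The log2 fold change of Prim1 was -0.77 between kFRA and DH-LMP2A (SE 0.244, edgeR adjusted p = 0.111) and 0.45 between DH-LMP2A and WT (SE 0.241, edgeR adjusted p = 0.275). Pola2, the regulatory subunit of polymerase alpha, was even across the libraries at 22.4, 24.4 and 25.1 CPM in kFRA, beside 23.0, 23.3 and 25.2 in DH-LMP2A and 23.1, 20.03 and 24.05 in WT. Its log2 fold change between kFRA and DH-LMP2A was 0.01 (SE 0.118, edgeR adjusted p = 0.983). Pola1, the catalytic subunit, was at 3.21, 10.9 and 3.89 CPM in kFRA against 6.26 to 9.85 in DH-LMP2A and 7.45 to 10.6 in WT, and Prim2, the large primase subunit, stayed between 6.47 and 9.03.

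Among the elongating polymerases, Pold1, the catalytic subunit of polymerase delta (chr7:44532746-44548849), fell by 0.62 on the log2 scale in kFRA against WT (SE 0.154, edgeR adjusted p = 0.0233). Its level was 11.3, 11.7 and 14.5 CPM in kFRA, beside 15.7, 19.3 and 17.0 in DH-LMP2A and 21.6, 18.7 and 17.6 in WT. All kFRA libraries were below all others, including replicate 2. Against DH-LMP2A the log2 fold change was -0.47 (SE 0.154, edgeR adjusted p = 0.123). The call against WT was lost without kFRA replicate 1, WT replicate 1 or WT replicate 2, at edgeR adjusted p = 0.0939, 0.0777 and 0.0664. It was also lost without DH-LMP2A replicate 1, in a fit of the 6 libraries compared (edgeR adjusted p = 0.0723) and with library size alone (edgeR adjusted p = 0.152). Pole, the catalytic subunit of the leading-strand polymerase, was at 2.73, 11.1 and 3.82 CPM in kFRA, beside 11.3, 9.46 and 9.92 in DH-LMP2A and 11.2, 7.34 and 9.55 in WT. Its kFRA replicates 1 and 3 were the lowest of the 9 libraries, and its kFRA replicate 2 was close to the highest. Pole2, the second subunit, was at 2.26 to 3.09 CPM in kFRA, beside 3.16 to 3.71 in DH-LMP2A and 2.89 to 4.89 in WT.

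Pcna was at 48.6, 57.4 and 50.1 CPM in kFRA, beside 67.2, 57.3 and 52.7 in DH-LMP2A and 64.8, 61.9 and 67.6 in WT. Every kFRA library was below every WT library, and the log2 fold change was -0.32 (SE 0.129, edgeR adjusted p = 0.116). The clamp loader subunits Rfc1 to Rfc5 were not called in any contrast, with Rfc2 the highest of them at 37.4 to 59.5 CPM. Fen1, the nuclease that trims Okazaki fragment flaps, was at 34.1, 38.3 and 46.3 CPM in kFRA, beside 46.3, 36.4 and 35.7 in DH-LMP2A and 39.2, 33.7 and 52.9 in WT, with no order between genotypes. Lig1, the ligase that seals the fragments, was at 13.8 to 26.9 CPM in kFRA, beside 25.7 to 31.5 in DH-LMP2A and 19.5 to 25.6 in WT.

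Nucleotide supply and chromatin genes held the only member whose kFRA libraries were all above those of DH-LMP2A. Tk1, the thymidine salvage kinase, was at 37.7, 48.0 and 30.15 CPM in kFRA, beside 21.6, 26.0 and 29.4 in DH-LMP2A and 37.35, 24.05 and 20.5 in WT, with a log2 fold change against DH-LMP2A of 0.59 (SE 0.249, edgeR adjusted p = 0.204). Rrm2, the regulated subunit of ribonucleotide reductase, was at 20.4, 45.5 and 30.3 CPM in kFRA, beside 60.03, 50.8 and 35.7 in DH-LMP2A and 48.1, 37 and 48.8 in WT. Its kFRA range overlapped both other genotypes through replicate 2. Rrm1, the large subunit, was at 27.6 to 34.6 CPM in kFRA, below 36.2 to 40.4 in DH-LMP2A and, by a narrow margin, below 34.60 to 38.2 in WT. Tyms, which makes thymidylate, ran from 6.83 to 12.5 CPM. Uhrf1, which directs maintenance methylation to new DNA, was at 6.29, 17.7 and 9.46 CPM in kFRA, beside 21.1, 17.3 and 15.6 in DH-LMP2A and 16.65, 12.4 and 19.35 in WT. The histone chaperone subunits Chaf1a and Chaf1b ran from 3.69 to 12.3 and from 1.75 to 3.34 CPM, each with kFRA replicates 1 and 3 as the lowest libraries.

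Counted over the members, kFRA against DH-LMP2A gave no call by edgeR, where 5.02% of all tested genes were called (1.73% higher, 3.3% lower in kFRA). By DESeq2 1 member was called, Prim1 at a log2 fold change of -0.75 (DESeq2 adjusted p = 0.0454). DESeq2 called 9.9% of all genes in this contrast, 5.75% being lower in kFRA. At an unadjusted edgeR p under 0.05 there were 1 member higher and 7 lower, against 10.3% and 12.1% of all genes. Log2 fold changes ran from -0.82 to 0.59 with a median of -0.36, and 33 of 38 were below 0 and 5 above, while the median of all tested genes was 0 and 49.3% were above 0. The median was -0.20 without kFRA replicate 1 and -0.24 without DH-LMP2A replicate 1. In 10 members (26.3%) each kFRA library was below each DH-LMP2A library, as in 13.9% of all genes: Mcm2, Mcm4, Mcm5, Gins2, Gins3, Prim1, Pole2, Pold1, Rfc1 and Rrm1. Only Tk1 (2.63%) had every kFRA library higher, as had 11.6% of all genes. By role the median was lowest for chromatin copying (-0.57) and the elongating polymerases (-0.47), and -0.21 for the clamp and clamp loader.

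Several marker lists had negative medians in the same contrast. All 8 B cell markers had a log2 fold change below 0 (median -0.81, 2 called lower), as had all 8 T cell markers (median -0.56, none called by edgeR, 0 at an unadjusted p under 0.05). So had 8 of 9 erythroid markers (median -0.56, none called, 1 lower at an unadjusted p under 0.05) and 7 of 8 plasma cell markers (median -0.41, none called, 2 lower at an unadjusted p under 0.05). The 8 myeloid markers had a median of -0.05, with 2 called lower. With the B cell marker level as a covariate the members' median was -0.40, and with the erythroid marker level it was -0.34. With Xist as a covariate it was -0.26, and no member was called in any of these fits. Few genes of any kind were called in them: 1.52% of all genes with the B cell level, 3.31% with the erythroid level and 3.86% with Xist. The mean log2 CPM of the B cell markers did not overlap, at 4.312 to 4.78 in kFRA and 5.174 to 6.183 in DH-LMP2A. The fit with the B cell level therefore cannot separate that level from genotype.

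Against WT, 2 members were called lower in kFRA, Mcm6 and Pold1, and none higher, where 11.1% of all genes were called lower and 6.68% higher. By DESeq2 2 were called lower and none higher, where 24.8% of all genes were called, 13.9% being lower. At an unadjusted edgeR p under 0.05 there were 7 lower and 0 higher (all genes 19.8% and 15.2%). The count of calls is below the background share. The median was -0.28, beside -0.04 for all genes, and 29 of 38 were below 0 and 9 above, where 47.3% of all genes were above 0. Without kFRA replicate 1 the median was -0.11, and with library size alone it was -0.04 with 20 of 38 below 0, beside 0.17 for all genes. Libraries did not overlap for 6 members lower in kFRA (15.8%, all genes 20.2%), which were Mcm4, Mcm6, Gins1, Pold1, Pcna and Rrm1, and for 0 higher (all genes 14.2%). In this contrast 4 of 8 B cell markers, 3 of 5 tested germinal centre markers and 4 of 8 myeloid markers were called lower and 4 of 9 erythroid markers higher, while 2 of 8 plasma cell markers were called higher and 1 lower. Neither Mcm6 nor Pold1 was called with the B cell level as a covariate (edgeR adjusted p = 0.465 and 0.574) or with the erythroid level (0.0979 and 0.309, edgeR). Their log2 fold changes in these fits were -0.68 and -0.56 with the B cell level and -0.84 and -0.48 with the erythroid level, beside -0.65 and -0.62 without a covariate. Calls over all genes also fell, from 17.8% without a covariate to 2.48% with the B cell level and 5.75% with the erythroid level.

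Between DH-LMP2A and WT, Mcm6 was the single call, lower in DH-LMP2A, where 7.3% of all genes were called lower and 5.07% higher. No member was called higher by edgeR or DESeq2, and 0 were at an unadjusted edgeR p under 0.05 in that direction (all genes 10.9%). DESeq2 called 17.8% of all genes in this contrast, 10.6% being lower in DH-LMP2A. The members' median was 0.11, beside -0.01 for all genes, with 28 of 38 above 0 (all genes 49.1%). Without DH-LMP2A replicate 1 the median was 0.01, and without WT replicate 2 it was 0.02. Libraries did not overlap for 6 members higher in DH-LMP2A (15.8%, all genes 17.5%), which were Mcm5, Mcm7, Prim1, Prim2, Rfc2 and Lig1, and for Mcm6 and Gins1 lower (5.26%, all genes 19.1%). With the erythroid level as a covariate the median became -0.02. Mcm6 was then not called (edgeR adjusted p = 0.256), at a log2 fold change of -0.84 beside -0.60 without the covariate. Calls over all genes fell from 12.4% to 2% with that covariate. The mean log2 CPM of the erythroid markers did not overlap, at 4.238 to 6.278 in DH-LMP2A and 0.632 to 3.037 in WT. That fit therefore cannot separate the erythroid level from genotype. In this contrast 4 of 9 erythroid markers were called higher, 2 of 5 tested germinal centre markers and 1 of 8 myeloid markers lower, 3 of 8 B cell markers higher and 1 lower, and 3 of 8 plasma cell markers higher and 1 lower. The contrasts share libraries in pairs and their values are not independent of each other.

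**Figure D3:**
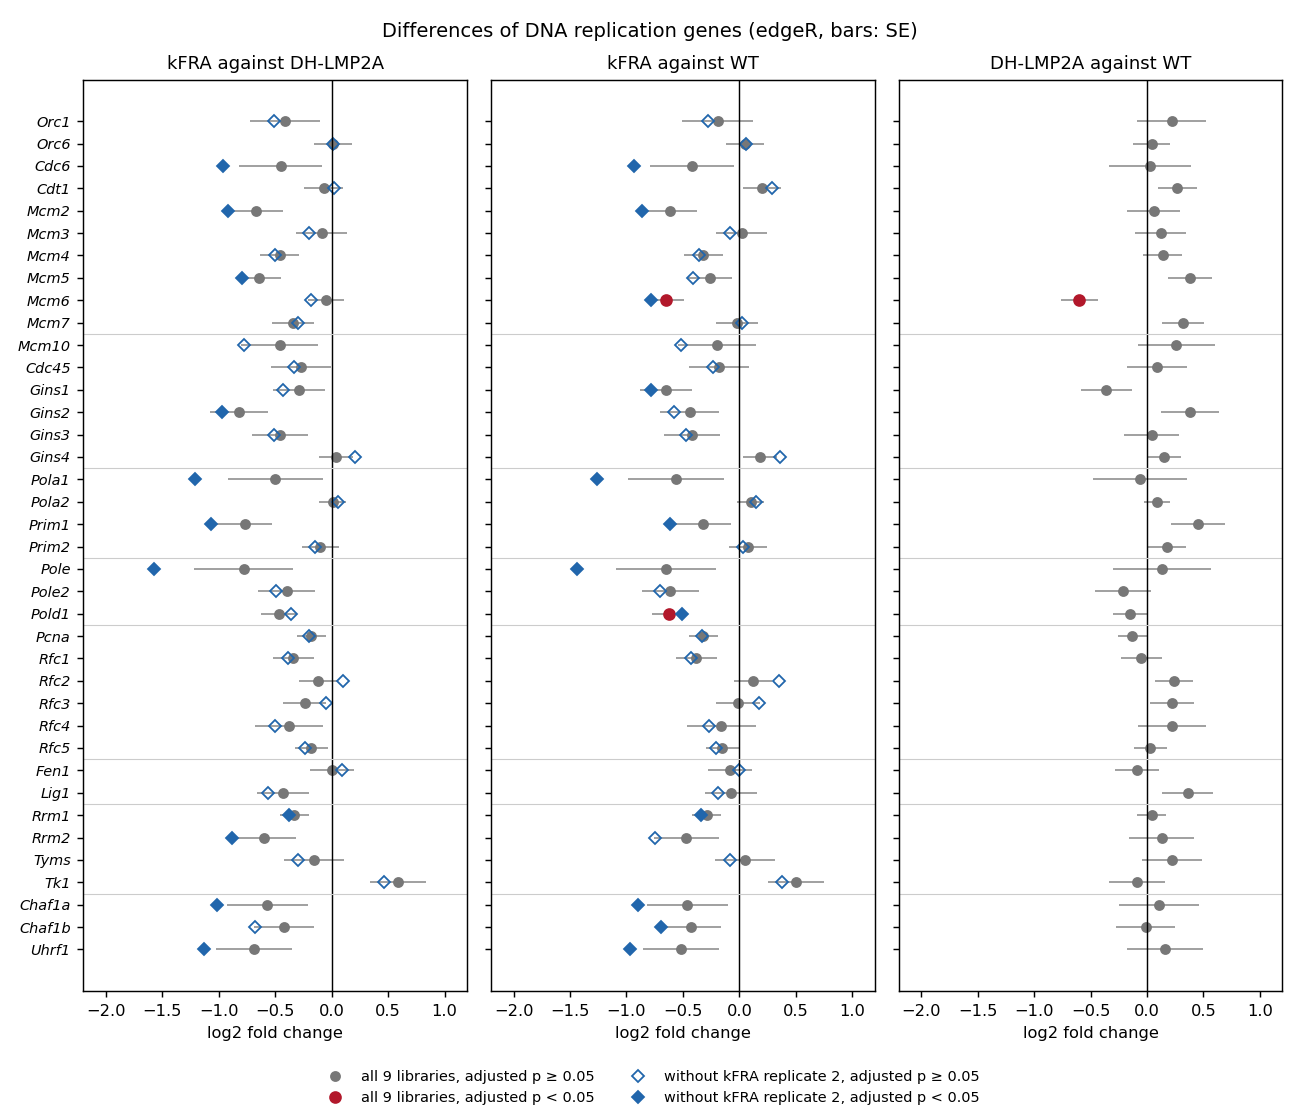
Log2 fold change with its SE for the 38 genes in the 3 comparisons, with called genes marked. With all 9 libraries, most points for kFRA against DH-LMP2A lie left of 0 (33 of 38). The marked points of that fit are Mcm6 against WT in both other genotypes and Pold1 in kFRA against WT. Diamonds in the kFRA comparisons show the fit without kFRA replicate 2. They are filled where called, for 11 genes against DH-LMP2A and 12 against WT.

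Within kFRA the 3 mice differed more than those of the other genotypes. The median SD of log2 CPM within kFRA was 0.33 for the members and 0.31 for all genes, against 0.18 and 0.23 in WT and 0.17 and 0.18 in DH-LMP2A. Among members it ran from 0.08 for Pola2 to 1.04 for Pole. Replicate 2 was the highest kFRA library for 30 of the 38 genes, beside 43.6% of all genes. Replicate 1 was the lowest for 28 of the 38, beside 24.8% of all genes. Replicate 2 exceeded the mean of replicates 1 and 3 in 32 members, by a median of 0.48 on the log2 scale, whereas over all tested genes it did so in 7513 of 14199, with a median of 0.05. The largest gaps were those of Pole (1.75), Pola1 (1.60), Cdc6 (1.29), Chaf1a (1.21) and Uhrf1 (1.19). At the other end Rfc2 was lower in replicate 2, by -0.52.

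Leaving out kFRA replicate 2 changed the calls. Against DH-LMP2A 11 members were then called lower by edgeR (28.9%, all genes 11%): Cdc6, Mcm2, Mcm5, Gins2, Pola1, Prim1, Pole, Rrm1, Rrm2, Chaf1a and Uhrf1. The log2 fold change of Pole was then -1.57 (SE 0.249, edgeR adjusted p = 0.00601), and that of Prim1 -1.07 (SE 0.172, edgeR adjusted p = 0.00648). Against WT 12 were called lower (31.6%, all genes 20%): Cdc6, Mcm2, Mcm6, Gins1, Pola1, Prim1, Pole, Pold1, Rrm1, Chaf1a, Chaf1b and Uhrf1. No member was called higher in either. Leaving out a library that was seen to differ narrows the spread of the group, and the calls without it describe 2 mice. Replicate 2 is also the only kFRA library with high Xist. Among libraries with low Xist, the mean log2 CPM of the members was 3.21 and 3.52 in kFRA replicates 1 and 3, 3.76 in DH-LMP2A replicate 3 and 3.67 in WT replicate 2. In those with high Xist it was 3.84 in kFRA replicate 2, 4.01 and 3.89 in DH-LMP2A and 3.86 and 3.87 in WT. With 1 or 2 libraries of a genotype in each class, no test within a class was made, and sex and mouse cannot be told apart within kFRA.

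**Figure D4:**
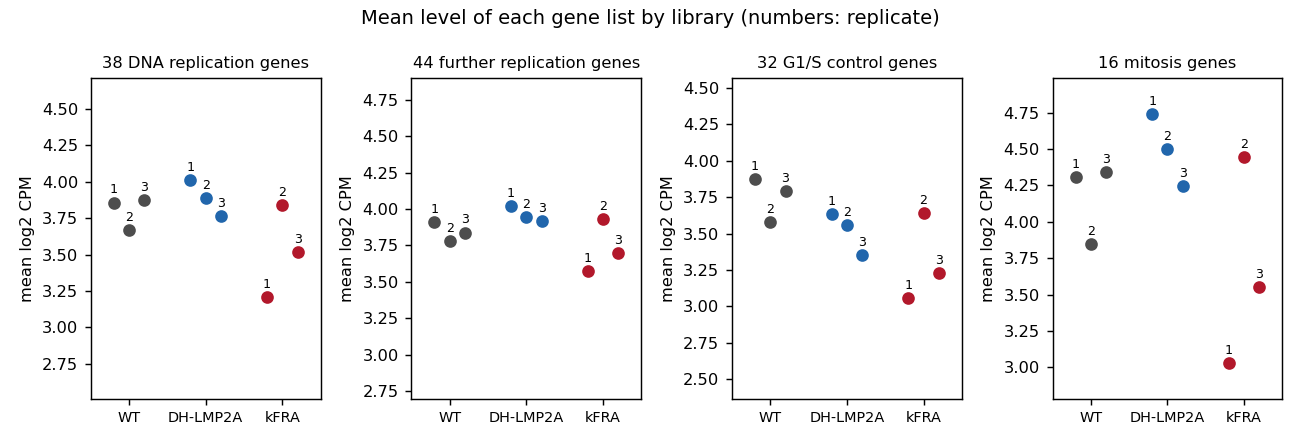
Mean log2 CPM of the 38 replication genes and of other pathway lists in each library, by genotype. In the replication and mitosis lists kFRA replicates 1 and 3 lie below the other 7 libraries, and kFRA replicate 2 lies within the range of DH-LMP2A and WT.

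Other genes of the cell cycle were read from fixed lists. In mitosis, 16 genes averaged 3.03, 4.45 and 3.55 log2 CPM in kFRA replicates 1, 2 and 3, against 4.24 to 4.74 in DH-LMP2A and 3.85 to 4.34 in WT. All 16 had a log2 fold change below 0 between kFRA and DH-LMP2A (median -0.70), with 0 called by edgeR, 4 at an unadjusted p under 0.05 and 1 called by DESeq2. Mki67, a marker of cycling cells, was at 115.2, 433 and 122.3 CPM in kFRA replicates 1 to 3, 469.1, 446.6 and 312.4 in DH-LMP2A and 283.1, 218.3 and 257.5 in WT. Its log2 fold change between kFRA and DH-LMP2A was -0.87 (SE 0.462, edgeR adjusted p = 0.290). Without kFRA replicate 2, 11 of the 16 were called lower against DH-LMP2A (all genes 11%) and 10 against WT (all genes 20%). In DH-LMP2A against WT, 15 of 16 were above 0 and Bub1b, a spindle checkpoint kinase, rose by 0.77 (SE 0.218, edgeR adjusted p = 0.0483).

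Of 44 other replication genes, 0 were called by edgeR between kFRA and DH-LMP2A (2 higher and 6 lower at an unadjusted p under 0.05, and 2 higher by DESeq2), with a median of -0.19. Against WT 2 were called lower in kFRA and 0 higher by edgeR, beside 11.1% and 6.68% of all genes. There were 4 higher at an unadjusted edgeR p under 0.05, and 3 by DESeq2. Dck, the deoxycytidine salvage kinase, had a log2 fold change of -1.08 and fell (SE 0.248, edgeR adjusted p = 0.0179). Rpa1, a subunit of the single-strand binding protein, fell by 0.36 (SE 0.107, edgeR adjusted p = 0.0478). In DH-LMP2A against WT, where 5.07% of all genes were called higher and 7.3% lower, Donson was the single call. This gene of a replication fork protein rose by 0.64 (SE 0.125, edgeR adjusted p = 0.0103). Without kFRA replicate 2, 9 of the 44 were called lower and 4 higher against DH-LMP2A (all genes 11% and 11.7%), and 10 lower and 9 higher against WT (all genes 20% and 18.8%). With all 9 libraries, none of 8 S-phase checkpoint genes was called in any contrast by edgeR or DESeq2, with 1 lower at an unadjusted p under 0.05 in each kFRA contrast.

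Of 32 genes of G1/S control, 0 were called between kFRA and DH-LMP2A by either edgeR or DESeq2 (1 higher and 4 lower at an unadjusted edgeR p under 0.05). Against WT 6 were called lower in kFRA and 0 higher, where 11.1% of all genes were called lower and 6.68% higher. Among the 6 was Myc, a growth-promoting transcription factor, which fell by 0.94 (SE 0.221, edgeR adjusted p = 0.0195). The cyclin-dependent kinase inhibitor Cdkn2a fell by 1.96 (SE 0.507, edgeR adjusted p = 0.0280). Its relative Cdkn2b was called too (edgeR adjusted p = 0.0181), at 1.23 ± 0.450 CPM in WT and 0.142 ± 0.125 CPM in kFRA (SD, n = 3), a level that 3 counts would give (0.139 to 0.194 CPM). In DH-LMP2A against WT 2 were called higher and 3 lower, where 5.07% of all genes were called higher and 7.3% lower. Cdkn1b, which encodes the inhibitor p27, rose by 0.47 (SE 0.119, edgeR adjusted p = 0.0310), and Tfdp2, a dimer partner of E2F, rose by 0.82 (SE 0.233, edgeR adjusted p = 0.0493). Cdkn2a fell by 2.13 (SE 0.503, edgeR adjusted p = 0.0235), Cdk6, a G1 kinase, by 1.60 (SE 0.386, edgeR adjusted p = 0.0256), and E2f2 by 1.19 (SE 0.299, edgeR adjusted p = 0.0308). The list's called members include genes that promote and genes that restrain entry into S phase. The activator E2f1 was even across genotypes, at 10.8 ± 0.868 CPM in WT, beside 11.7 ± 0.941 in DH-LMP2A and 11.4 ± 0.289 in kFRA (SD, n = 3).

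The other regulators fixed for naming were not called in any contrast. Cyclin E genes Ccne1 and Ccne2 had log2 fold changes of 0.17 and -0.60 between kFRA and DH-LMP2A (SE 0.295 and 0.402), and Gmnn, the inhibitor of Cdt1, of -0.05 (SE 0.192). The cyclin-dependent kinase inhibitor Cdkn1a was at 2.98 ± 0.903 CPM in kFRA, beside 1.69 ± 0.511 in DH-LMP2A and 3.86 ± 1.42 in WT, and Cdkn2c at 13.9 ± 2.49, 13.1 ± 0.996 and 13.5 ± 2.30 (SD, n = 3).

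Several members share sequence or position with other genes, which limits their counts. In GENCODE M21, 14 of the 38 overlap an exon of another gene, 10 of them over more than 10% of their exon bases. Fen1 (84.2%) and Gins2 (67.3%) are overlapped most, both by a gene on the opposite strand, and the strand setting of the counting is not given in the sources used here. The others over that limit are Orc1, Orc6, Mcm7, Pole2, Rfc2, Rfc4, Rfc5 and Chaf1a. A transcript of another gene matched Cdc6, Mcm7, Pcna, Rfc5, Rrm2, Tyms and Uhrf1 at 95% identity or more over at least 400 bases, so reads of these 7 could be split or shared. Neither limit applies to Mcm6 or Pold1.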

How the data were processed

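Polyadenylated RNA of 9 libraries, each from the spleen of a different mouse, was sequenced as read pairs with a strand-specific kit, as the labels' protocols state. Raw read counts per gene, with merged exon lengths, were deposited by the authors, per the file headers. The submitters' processing notes name STAR 2.4.0a, featureCounts of Subread 1.5.0-p3, DESeq2 and the mouse build mm10, and the strand setting is not given in the sources used here. The table's coordinates were read as GRCm38: all 38 members overlap their gene in GENCODE M21 and 31 have the same span.

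All 3 contrasts were tested 2-sided with edgeR 4.0.16 (R 4.3.3), by the quasi-likelihood F test in a model with a coefficient per genotype over all 9 libraries. TMM scaling was used, filterByExpr kept 14199 genes, and p-values were adjusted by Benjamini-Hochberg over all of them. CPM are TMM-scaled, RPKM divide them by exon length, and log2 CPM use a prior count of 2. The floor of detection is 3 counts, 0.139 to 0.194 CPM by library, and covers counting error only. The script was tested on simulated counts. Replicate pairs differed by more than sampling noise (chi-square per degree of freedom 17.3 to 164).

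The members and all gene lists were chosen with earlier results of these data known. Values per library are given for Mcm2 to Mcm7, for the most abundant member per length in each role and for the 5 members with the smallest p in each contrast. Further members were named after their values were seen. In other lists, up to 3 called genes per direction and 7 fixed regulators are named, and Cdk6 also in kFRA against WT. Alternatives were DESeq2 1.42.0, other scalings and filters, marker and Xist covariates, a replicate block and leaving out each library. Promoter sequences are those of RefSeq (GRCm38.p6).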

Additional observations from a re-analysis of the deposited data

How the results depend on the processing

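The call of Mcm6 in DH-LMP2A against WT was lost without the filter (edgeR adjusted p = 0.0532). Scaling by library size alone moved the median of all genes to -0.14, 0.17 and 0.33 (log2) in kFRA against DH-LMP2A, kFRA against WT and DH-LMP2A against WT. The split of calls over all genes, 948 higher and 1575 lower in kFRA against WT and 720 and 1036 in DH-LMP2A against WT, became 2367 and 917, and 2054 and 519, so directions in these contrasts are relative to that shift.

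Members called in kFRA against DH-LMP2A went from 0 to 1 with the DESeq2 Wald test and ran from 0 to 11 over the leave-one-out fits. In kFRA against WT they went from 2 to 0 with library size alone, the erythroid or the B cell covariate, the 6 libraries compared only, or an adjusted p under 0.01, and ran from 0 to 12 in leave-one-out fits. In DH-LMP2A against WT they went from 1 to 3 with library size alone (Cdt1, Gins4 and Rfc2, all higher), to 0 with no filter, either marker covariate or an adjusted p under 0.01, and were 0 in each leave-one-out fit of its 6 libraries. The members' median in that contrast, 0.11, moved to 0.46 with library size alone and to -0.02 with the erythroid covariate. Over leave-one-out fits the medians ran from -0.41 to -0.20, -0.35 to -0.11 and 0.01 to 0.18 in the 3 contrasts.

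Genes called in kFRA against DH-LMP2A, 713, became 1405 with the DESeq2 Wald test, 470 with the erythroid and 216 with the B cell covariate, 306 under 0.01 and 352 to 3299 in leave-one-out fits. In kFRA against WT 2523 became 817, 352 and 975 with the erythroid covariate, the B cell covariate and under 0.01, and 1271 to 5632 in leave-one-out fits. In DH-LMP2A against WT 1756 became 1095 with a mean of at least 5 CPM, 284 with the erythroid covariate, 765 under 0.01 and 932 to 1408 in leave-one-out fits. Under 0.01 the fit is the same and only the threshold is stricter. For the other settings the cause was not tested, beyond fewer libraries or genes where the setting removes them. A marker level that does not overlap between the genotypes compared cannot be separated from genotype by its covariate fit.

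No pairing of mice by replicate number was seen, though deviations from means of 3 libraries cannot show that it is absent. Over 9 same-number pairs the correlation of deviations ran from -0.21 to 0.2, with 4 over 0.1. Of the 9 libraries, 2 matched best with their own number. With the replicate number as a block, 0, 2 and 0 members were called in the 3 contrasts, in the order above, and Mcm6 in DH-LMP2A against WT had edgeR adjusted p = 0.0559. Of 861 values of 17 named members, 26 lost a call, 13 gained one and 0 reversed, while 62 uncalled values changed sign.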
